A study of Mus musculus with 16 samples.

Results

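The genes described here encode the proteins of the cytosolic ribosome. They were taken by symbol from the protein-coding genes of the GRCm38 annotation (GENCODE vM21), as Rpl or Rps followed by a digit, or Rplp, leaving out the S6 kinase genes (Rps6k) and pseudogene symbols ending in -ps. The rule found 85 of 21951 genes: 43 of the large subunit, 3 of the ribosomal stalk, 30 of the small subunit, and 9 paralogs or like-named genes (Rpl3l, Rpl7l1, Rpl10l, Rpl22l1, Rpl36al, Rpl39l, Rps27l, Rps27rt and Rps19bp1). Rps19bp1 encodes a binding partner of Rps19 rather than a ribosomal protein. For each gene, the ATAC-seq peaks with a midpoint within 1 kb of the annotated 5′ end were read from each peak list and are called promoter peaks.

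The cells were macrophages grown from C57BL/6J bone marrow in L-cell conditioned medium, and their open chromatin was mapped by ATAC-seq, which marks DNA that the Tn5 transposase can reach. On day 8, all cells were in serum-free medium and were given vehicle (DMSO, Veh) or T0901317 (T0), a synthetic agonist of LXR, at 500 nM for 3 h. The LPS and T0-LPS groups then received LPS, the TLR4 ligand, at 10 ng/mL for 2 h in the same medium, so they were also cultured for 2 h longer than Veh and T0. Each of the 4 groups had 4 libraries of 50000 cells, and the authors called peaks on the 4 libraries together, so each group is 1 list and no value below has a replicate error or a test. The lists were then limited by the authors to sites that carry H3K4me2 or H3K27ac in macrophages of another study, so a gene without a peak may have had a called peak that was removed. They held 35551 (Veh), 29839 (T0), 33181 (LPS) and 31085 (T0-LPS) peaks. As a check of the cell type, 9 or 10 of 10 macrophage markers had a promoter peak in each list, against 0 of 5 T cell markers, 1 of 4 B cell markers (Ms4a1), 1 of 2 natural killer markers (Klrb1c) and 1 of 4 neutrophil markers (S100a8) in every list. Of 4 fibroblast markers, 1 (Col1a1) had a peak in Veh and 0 in the other lists.

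Ribosomal proteins assemble with ribosomal RNA into the large and small subunits that translate messenger RNA, and growing cells transcribe their genes at a high and coordinated rate. Their messenger RNAs typically start with a C followed by a run of pyrimidines, the 5′ terminal oligopyrimidine tract, through which mTOR signalling controls their translation. The promoters usually lack a TATA box, and matches to GABP and other ETS factors, SP1 and YY1 are known from them. LXR is a nuclear receptor that responds to oxysterols, and LPS activates NF-kB and AP-1.

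Promoter sequences of RefSeq (GRCm38.p6, 250 bases before to 50 bases after the start) were found for 65 of the 85 genes. Promoters of 3 kinds are shown, as 5′ to 3′ sequence of the coding strand, with matches to the motifs named below and any pyrimidine run over the start in capitals. The first kind shows promoters at the ends of the range of peak strength. Rpl15 (chr14:18270937-18271236, minus strand) and Rps21 (chr2:180257129-180257428, plus strand) were among the strongest promoter peaks, Rpl26 (chr11:68901316-68901615, plus strand) was among the weakest, and Rpl12 (chr2:32961462-32961761, plus strand) had one of the largest differences between Veh and T0.
Rpl15: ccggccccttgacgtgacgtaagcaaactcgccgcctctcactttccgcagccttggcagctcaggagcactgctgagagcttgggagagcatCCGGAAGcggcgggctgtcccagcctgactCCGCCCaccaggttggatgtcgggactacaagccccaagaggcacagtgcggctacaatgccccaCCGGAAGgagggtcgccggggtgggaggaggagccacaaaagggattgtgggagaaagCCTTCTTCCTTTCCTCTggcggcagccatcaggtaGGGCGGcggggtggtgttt
Rps21: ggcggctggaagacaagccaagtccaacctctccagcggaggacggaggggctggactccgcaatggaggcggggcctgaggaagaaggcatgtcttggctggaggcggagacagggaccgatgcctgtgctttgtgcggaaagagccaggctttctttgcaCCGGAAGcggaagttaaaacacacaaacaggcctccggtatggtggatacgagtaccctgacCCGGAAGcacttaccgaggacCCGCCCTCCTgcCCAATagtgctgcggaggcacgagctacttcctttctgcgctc
Rpl26: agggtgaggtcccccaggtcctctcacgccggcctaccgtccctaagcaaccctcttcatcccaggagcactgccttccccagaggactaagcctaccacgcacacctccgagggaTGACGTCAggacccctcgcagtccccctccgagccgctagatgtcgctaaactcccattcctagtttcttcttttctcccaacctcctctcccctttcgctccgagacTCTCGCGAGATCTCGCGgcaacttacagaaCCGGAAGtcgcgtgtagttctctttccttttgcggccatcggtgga
Rpl12: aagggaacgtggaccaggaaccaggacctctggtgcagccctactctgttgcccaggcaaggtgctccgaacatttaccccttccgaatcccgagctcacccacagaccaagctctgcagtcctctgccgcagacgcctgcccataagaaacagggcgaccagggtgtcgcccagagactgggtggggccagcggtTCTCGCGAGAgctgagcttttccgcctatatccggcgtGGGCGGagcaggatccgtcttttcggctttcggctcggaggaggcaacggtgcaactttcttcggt

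The second kind shows the promoters whose peak was present in only some lists. Rpl6 (chr5:121204251-121204550, plus strand) and Rpl19 (chr11:98026460-98026759, plus strand) had none in the T0 list, and Rpl4 (chr9:64173137-64173436, plus strand) had one in the T0-LPS list alone. The Rpl4 window held no match to the 12 factor motifs, although the letters CTTTCC lie just before its start, and its GC content of 40.7% was the lowest of the 65 promoters.
Rpl6: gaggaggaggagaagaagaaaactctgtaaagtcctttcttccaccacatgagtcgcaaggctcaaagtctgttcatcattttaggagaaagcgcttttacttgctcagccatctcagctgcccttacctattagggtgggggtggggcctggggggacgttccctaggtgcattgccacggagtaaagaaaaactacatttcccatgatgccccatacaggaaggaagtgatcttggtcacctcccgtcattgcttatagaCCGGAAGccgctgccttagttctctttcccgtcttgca
Rpl19: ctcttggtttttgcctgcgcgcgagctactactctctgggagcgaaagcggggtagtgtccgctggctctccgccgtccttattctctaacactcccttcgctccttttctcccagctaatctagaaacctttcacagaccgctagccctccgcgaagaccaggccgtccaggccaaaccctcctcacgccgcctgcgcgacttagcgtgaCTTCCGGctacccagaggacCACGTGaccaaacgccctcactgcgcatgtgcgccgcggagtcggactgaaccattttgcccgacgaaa
Rpl4: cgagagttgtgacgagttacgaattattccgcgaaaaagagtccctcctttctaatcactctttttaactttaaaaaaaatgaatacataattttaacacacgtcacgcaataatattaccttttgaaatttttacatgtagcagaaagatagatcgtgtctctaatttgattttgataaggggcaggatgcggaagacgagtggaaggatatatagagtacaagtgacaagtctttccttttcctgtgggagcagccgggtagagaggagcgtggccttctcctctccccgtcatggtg

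The third kind compares a ribosomal protein gene with a copy of it. Rps27 (chr3:90213599-90213898, minus strand) had a promoter peak in all 4 lists and its like-named copy Rps27rt (chr9:114982690-114982989, minus strand) had none. The longest stretch the windows shared was 38 bases, from base 2 after the start in Rps27 and base 1 in Rps27rt, inside the transcribed part. No stretch as long was shared upstream of the start.
Rps27: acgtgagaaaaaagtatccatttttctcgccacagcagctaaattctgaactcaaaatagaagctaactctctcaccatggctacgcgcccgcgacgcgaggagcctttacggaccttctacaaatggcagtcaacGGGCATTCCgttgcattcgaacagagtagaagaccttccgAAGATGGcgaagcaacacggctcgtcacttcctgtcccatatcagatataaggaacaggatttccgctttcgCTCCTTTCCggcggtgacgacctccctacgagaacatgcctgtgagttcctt
Rps27rt: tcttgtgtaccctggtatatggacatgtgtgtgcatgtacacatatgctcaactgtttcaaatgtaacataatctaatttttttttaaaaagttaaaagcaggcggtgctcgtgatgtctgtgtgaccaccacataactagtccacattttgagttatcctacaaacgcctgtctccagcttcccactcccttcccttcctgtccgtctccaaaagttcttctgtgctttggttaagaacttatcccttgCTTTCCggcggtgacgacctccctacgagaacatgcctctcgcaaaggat

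Most ribosomal protein genes had a promoter peak in macrophages of every condition. In Veh, 76 of 85 genes (89.4%) had one, against 48.8% of all protein-coding genes. The T0 count was 73 (85.9%), and the LPS and T0-LPS lists each had 75 (88.2%), against 45.6%, 48.0% and 47.1% of all genes. A peak was present in all 4 lists for 72 genes, in none for 8 and in 1 to 3 lists for 5. Over all 21951 protein-coding genes these counts were 9786, 10993 and 1172. By role, 41 of 43 large subunit genes, 3 of 3 stalk genes, 27 of 30 small subunit genes and 5 of 9 like-named genes had a peak in Veh. Genes for the proteins of the mitochondrial ribosome, which have a separate evolutionary origin, had one in 72 of 78 cases in Veh (92.3%) and in 68, 71 and 70 cases in T0, LPS and T0-LPS.

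Of the 8 genes without a promoter peak, 4 were paralogs or copies and 4 were genes with an annotated start upstream of their peak. Rpl3l, Rpl10l and Rpl39l, paralogs known from muscle (Rpl3l) and testis (Rpl10l, Rpl39l), and Rps27rt had no peak at any of their annotated transcript starts in any list. Rpl17, Rps2, Rps10 and Rps14 had no peak at the 5′ end of the gene but had one in all 4 lists at another transcript start, 1919 bp (Rpl17), 1947 bp (Rps2), 1429 bp (Rps10) and 27498 bp (Rps14) downstream. At that start the Rps14 peak, of a small subunit protein, scored 537 (Veh), 365 (T0), 445 (LPS) and 544 (T0-LPS). The Rps2 peak scored 448, 309, 270 and 380 in the same order, the Rpl17 peak 404, 338, 342 and 325, and the Rps10 peak 261, 217, 208 and 194. For Rpl17, Rps2 and Rps10 the Veh list had the highest score, and for Rps14 the T0-LPS list. The order differed for percentiles among all peaks of the same list. By these T0-LPS was highest for Rps14 (78.2), Rps2 (62.0, Veh 58.3) and Rpl17 (55.0, Veh 53.7). Rps10 was at 35.1 (Veh), 34.9 (T0), 31.5 (LPS) and 32.2 (T0-LPS). With any transcript start allowed, 80, 78, 80 and 81 genes had a peak in Veh, T0, LPS and T0-LPS, against 52.3%, 49.0%, 51.5% and 50.6% of all genes.

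The 5 genes with a peak in 1 to 3 lists had weak peaks where they had one. The score is the authors' peak caller score, which rises with sequencing depth. It is therefore given also as a percentile among all peaks of its own list, where 100 is the strongest. Rpl6, a large subunit gene, scored 216 in Veh (percentile 27.9), 151 in LPS (19.7) and 158 in T0-LPS (23.6), and had no peak in T0. Rpl19, also of the large subunit, scored 144 in Veh (14.7), 81 in LPS (2.69) and 149 in T0-LPS (21.4), and had none in T0. Its peaks were not at one place: that of Veh began at position 98026886 and that of LPS at 98026923, both downstream of the sequence shown, whereas that of T0-LPS (chr11:98026557-98026748) lay within it. Rps24, a small subunit gene, scored 92 in Veh (3.97), 140 in T0 (17.1) and 117 in LPS (10.6), with none in T0-LPS. Rpl3 had a peak of score 86 in Veh only (3.05), centred 593 bp downstream of the 5′ end. The Rpl4 peak, of score 32 in T0-LPS (percentile 0.00161), was the lowest-scoring peak of that list, was 192 bp wide, and lay upstream of the 5′ end, outside the sequence shown (chr9:64172669-64172860).

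For Rps24 and Rpl3 the stronger peak was at another transcript start in all 4 lists. The Rps24 peak 3642 bp downstream (3605 bp in T0-LPS) scored 425, 377, 394 and 443 in Veh, T0, LPS and T0-LPS, and the Rpl3 peak 8462 bp downstream scored 280, 175, 259 and 350. For both genes the T0-LPS list had the highest score there and the T0 list the lowest. The Rps24 percentiles were 55.9 (Veh), 60.1 (T0), 59.4 (LPS) and 69.3 (T0-LPS), so by rank Veh was lowest. Those of Rpl3 were 38.1, 25.8, 40.6 and 58.3 in the same order, with T0 lowest. Peak names appear to number the called peaks in order, so a gap in the numbers between the neighbouring peaks leaves room for a peak that the histone filter removed. There was no such room at Rpl19 in T0, at Rpl3 in T0, LPS and T0-LPS, at Rps24 in T0-LPS, or at Rpl4 in Veh, T0 and LPS, and there was room for 1 peak at Rpl6 in T0. Of the paralogs and copies without a peak, Rpl3l had no room in any list. Rpl10l, Rpl39l and Rps27rt had room in every list, so a called peak may have been removed there.

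The promoter peaks of ribosomal protein genes spanned almost the whole range of peak strength, and their median was close to that of other promoters. The median percentile was 66.7 (Veh), 60.4 (T0), 67.0 (LPS) and 65.7 (T0-LPS), against 68.7, 67.3, 69.1 and 69.3 for all protein-coding genes with a promoter peak. Among promoter peaks alone the medians were 47.8, 42.9, 47.6 and 45.9. In Veh, 5 of the 76 genes (6.58%) were below percentile 25 and 27 (35.5%) at 75 or above, against 12.5% and 41.6% of all genes with a promoter peak. In T0, 12 of 73 (16.4%) were below 25, against 13.6% of all genes. By role, the Veh median was 62.2 for the large subunit, 58.5 for the stalk, 68.1 for the small subunit and 57.2 for the 5 like-named genes with a peak. Mitochondrial ribosomal protein genes had medians of 70.0, 69.5, 70.6 and 71.7 in the 4 lists.

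**Figure D1:**
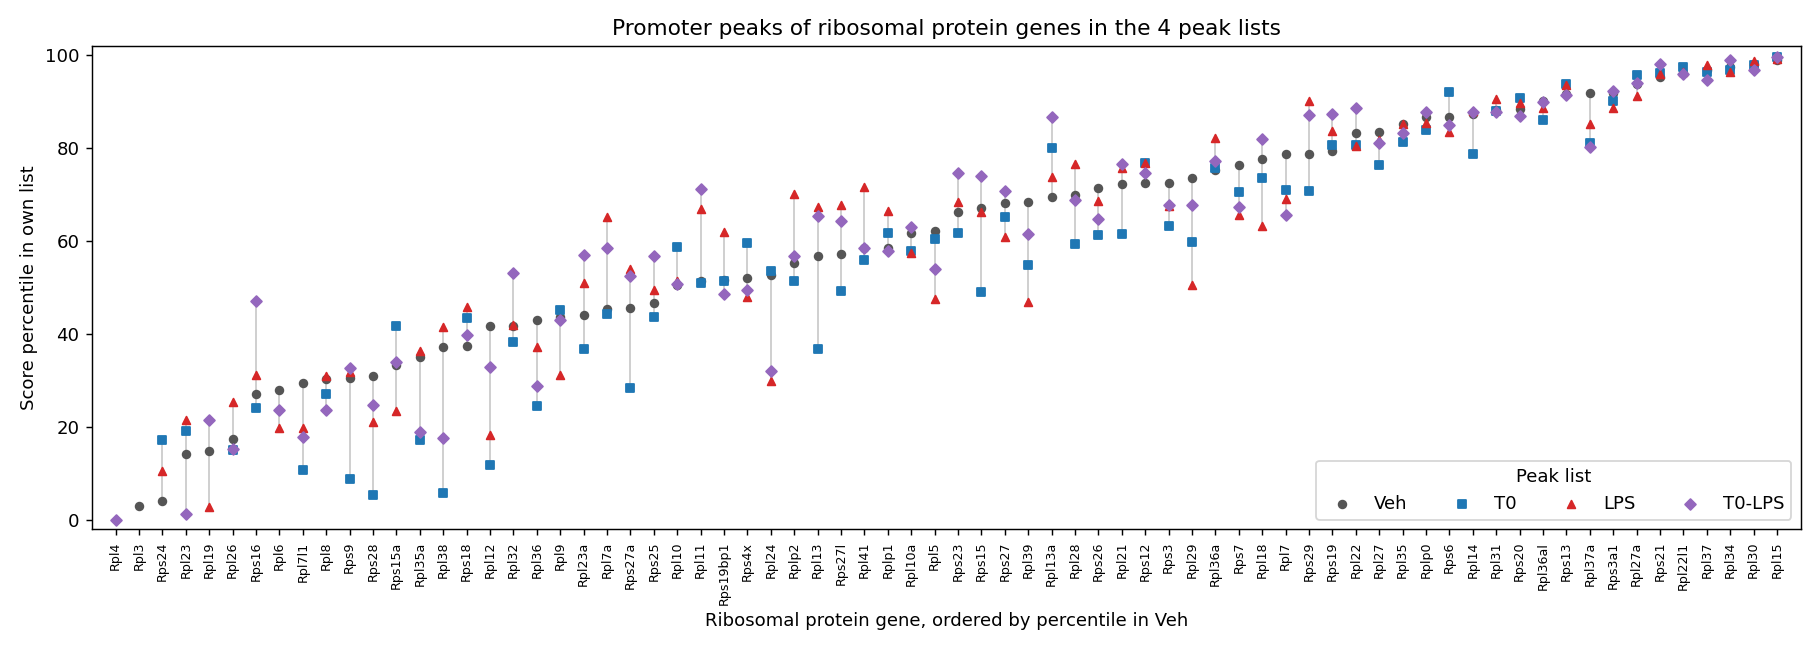
Score percentile of the strongest promoter peak (y axis, 0 to 100 within each list) for 72 of the 77 ribosomal protein genes with a promoter peak in at least 1 list (x axis, ordered by Veh), with 1 symbol per list and a grey line from the lowest to the highest. The symbols of Rpl15 lie within 0.844 points of each other, whereas those of Rpl38 span 35.8 points.

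At the top of the range, the same genes ranked high in all lists. Rpl15, of the large subunit, had the highest percentile in Veh, with scores of 1379 (Veh), 1420 (T0), 1294 (LPS) and 1343 (T0-LPS) (percentiles 98.9, 99.7, 99.1 and 99.6). Rpl30 scored 1293, 1102, 1246 and 1002 in the same order, and Rpl34 1241, 1035, 1035 and 1206. Rpl37 scored 1200, 1005, 1149 and 885, and Rpl22l1, the paralog of Rpl22, 1155, 1081, 1047 and 946. All 5 of these genes, taken by Veh percentile, were at percentile 94.6 or above in every list. The small subunit gene Rps21 was too (95.3, 96.2, 96.0 and 98.2 in the same order), so high ranks were not confined to the large subunit.

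At the bottom of the range, among genes with a peak in all 4 lists, were Rpl23, Rpl26, Rps16, Rpl7l1 and Rpl8, by their Veh percentile. Rpl23, a large subunit protein that also binds Mdm2, scored 142 (Veh), 148 (T0), 159 (LPS) and 65 (T0-LPS) (percentiles 14.2, 19.1, 21.4 and 1.21), so its T0-LPS peak was the lowest of the 4. Rpl26 scored 158, 133, 178 and 126 and stayed between percentiles 15.1 and 25.4. Rps16, of the small subunit, scored 210, 168, 207 and 274, and reached its highest percentile, 47.2, in T0-LPS. Rpl7l1 scored 225, 118, 151 and 135, highest in Veh. Rpl8 scored 231, 180, 205 and 158, also highest in Veh, but its percentile was 30.4 in Veh and 30.9 in LPS. The Rpl26 promoter shown above held 3 M-box matches, 1 CRE and 1 ETS match.

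Across the 4 lists, a gene's percentile varied by a median of 11.6 points (highest minus lowest) over the 72 ribosomal protein genes with a peak in all lists, against 10.3 points over 9786 protein-coding genes. The range was under 10 points for 31 of the 72 genes (43.1%; 48.9% of all genes). Rpl15 (0.844 points), Rpl22l1 (1.54), Rpl30 (1.93) and Rps13 (2.31) varied least. Rpl38 (35.8), Rpl13 (30.5) and Rpl12 (30.0) were among those that varied most.

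The peaks sat at the start of the gene. In Veh, the median distance of the peak midpoint from the annotated 5′ end was 78.5 bp in either direction (all genes 105 bp), and the peak covered the 5′ end in 70 of 76 genes (92.1%; all genes 84.0%). The midpoint farthest from the 5′ end within the 1 kb limit was 826 bp in Veh, a second Rpl18 peak with score 351 and percentile 47.5. The nearest one outside was the Rps10 peak at 1373 bp, with score 261 and percentile 35.1. Median width in bp was 564 (Veh), 491 (T0), 561 (LPS) and 538 (T0-LPS), against 565, 490, 536 and 514 bp for all genes. Widths in Veh ran from 196 bp for Rpl19 to 1814 bp for Rpl7.

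**Figure D2:**
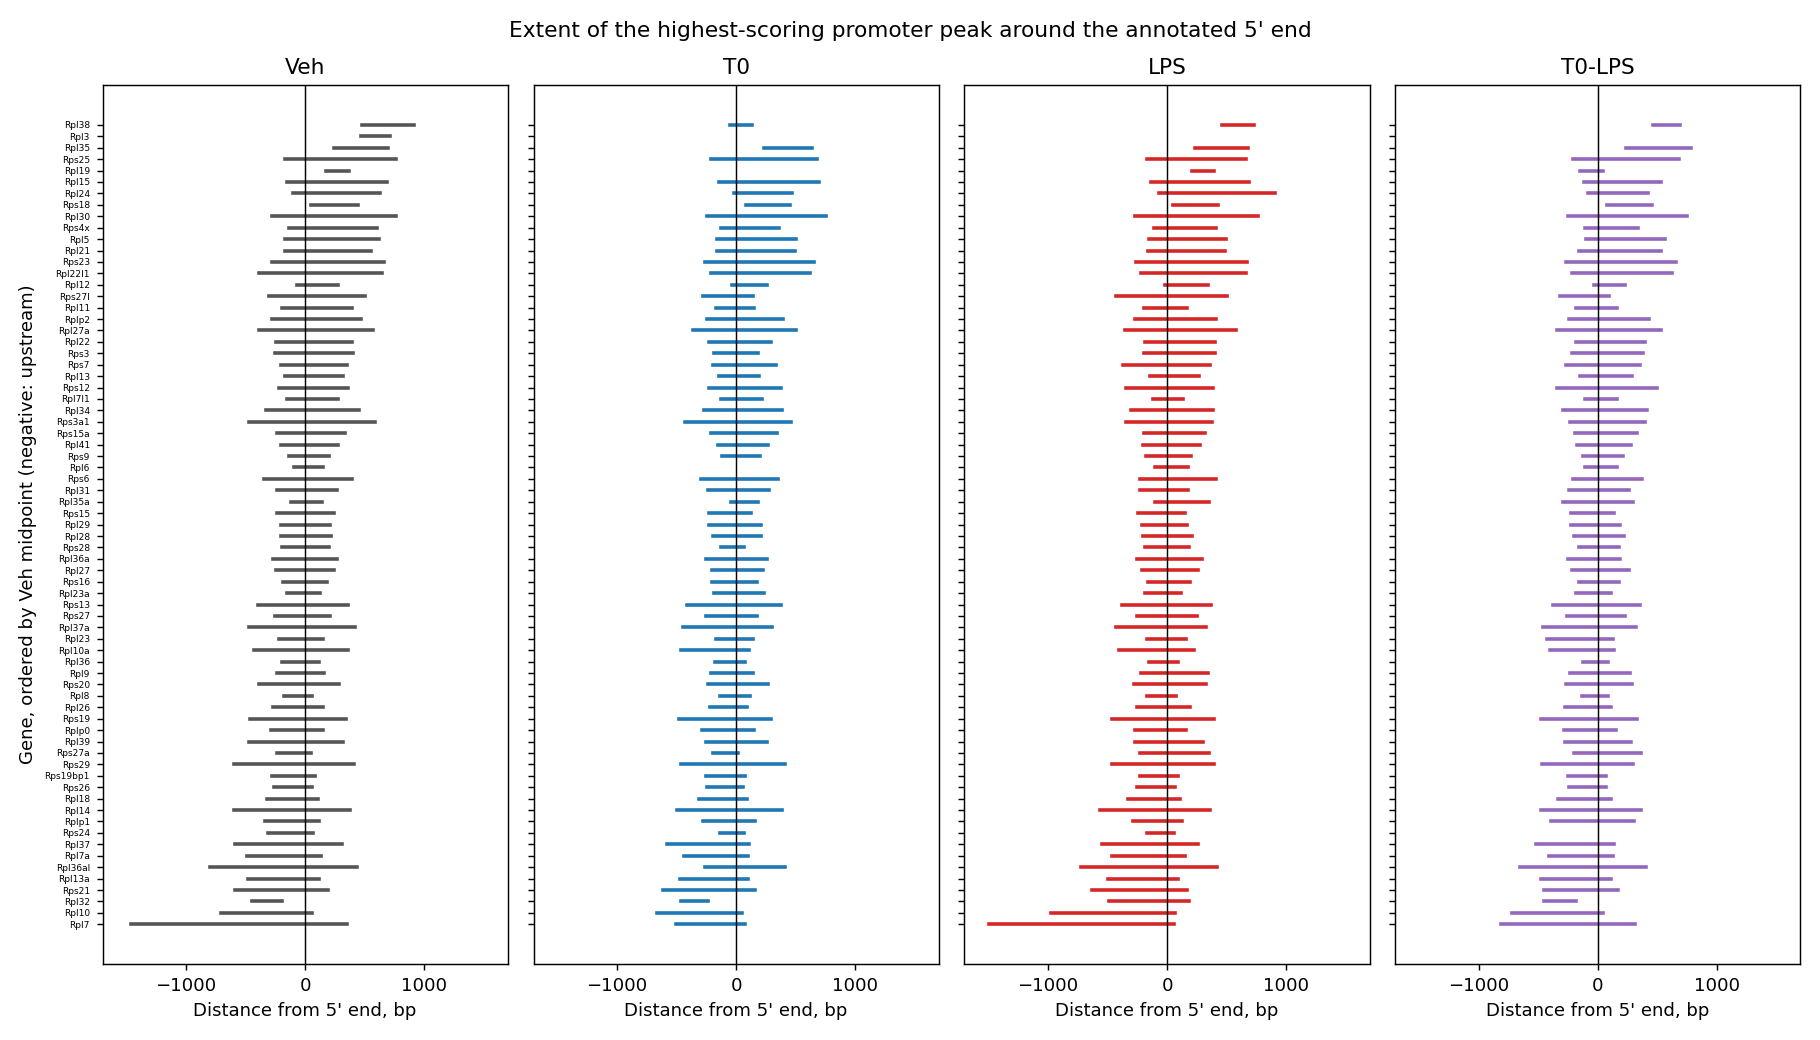
Extent of the strongest promoter peak in bp around the annotated 5′ end (x axis, negative is upstream), 1 panel per list and 1 line per gene for 71 of the 76 genes with a Veh peak (y axis, ordered by the Veh midpoint). In Veh 65 of the 71 lines cross the 5′ end. The Rpl7 peak, at the bottom, is 1814 bp wide in Veh and 580 bp in T0, where further peaks, not drawn, were called nearby.

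Several promoters were shared with a neighbouring gene, and many of the genes carry small nucleolar RNA (snoRNA) genes, whose products guide modification of ribosomal RNA. In Veh, the start of another protein-coding gene lay within 1 kb of the peak midpoint for 15 of 76 genes (19.7%), among them Rpl15 with Nkiras1, Rpl12 with Lrsam1, Rps24 with Polr3a and Rpl36al with Mgat2. The share was 22.3% of all genes and 45.8% of mitochondrial ribosomal protein genes. For these genes the peak cannot be assigned to 1 of the neighbours. A snoRNA gene lay within 29 of the 85 genes (34.1%), with 55 snoRNA genes in all, against 1.18% of all protein-coding genes and 0 of 78 mitochondrial ribosomal protein genes. Rpl4 held 5 snoRNA genes, and Rpl13a held 4.

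Some short motifs were more frequent in these promoters than in all promoters. Each motif was searched as exact letters on both strands of the 65 promoter windows, beside the same search in 16538 protein-coding genes and in the 8444 of them with a Veh promoter peak. The ETS motif CCGGAAG was in 24 of 65 (36.9%), against 12.3% of all and 20.7% of those with a Veh peak. The M-box TCTCGCG was in 13 (20.0%), against 3.83% and 6.29%. In Rpl12 and Rpl26 it occurs as TCTCGCGAGA, where the matches on both strands overlap. The YY1 motif AAGATGG was in 13.8%, against 6.43% and 7.70%, and the cyclic AMP response element TGACGTCA in 7.69%, against 2.42% and 3.68%. SP1 (GGGCGG) was in 60.0%, against 48.2% of all and 67.6% of those with a Veh peak. Among 69 promoters of mitochondrial ribosomal protein genes the shares were 34.8% (ETS), 5.80% (M-box), 18.8% (YY1), 2.90% (cyclic AMP response element) and 49.3% (SP1), so the ETS and YY1 letters were about as frequent there or more so.

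The other motifs are given beside their share of promoters with a Veh peak. NF-Y (CCAAT) was in 29.2% (39.8% of promoters with a Veh peak), the E-box CACGTG in 7.69% (10.7%) and NRF1 (GCGCATGC) in 3.08% (6.05%). In 300 bp windows at the Veh peak centres the E-box was in 13.8% (10.6% of all), so its order against other promoters turned with the window. TATAAA was in 9.23% (6.32%). The letters bound by nuclear receptors such as LXR, AGGTCA, were in 9.23% (11.1%; 3.45% against 10.1% at peak centres), NF-kB (GGGNNTTCC) in 7.69% (7.50%) and AP-1 (TGACTCA) in 3.08% (3.17%). A pyrimidine run of at least 5 bases over the start, with C at the start itself, was found in 14 of 65 promoters (21.5%), against 4.89% of all and 5.06% of those with a Veh peak. It was 2.90% in mitochondrial ribosomal protein genes. Starts in the reference can be off by a few bases, and the letters CTTTCC lay on the coding strand within 50 bases of the start in 19 (29.2%), against 4.35% of all, a count chosen after seeing the data. A match is a description of letters and not of a bound factor.

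Median GC content was 57.0% in the 65 promoters, 57.0% in all and 61.3% in those with a Veh peak. Across the 58 ribosomal protein genes with both a sequence and a Veh peak, GC content and Veh percentile had a Spearman correlation of 0.33, and across the 8444 genes one of -0.01. The sequence is at the RefSeq start and the peak at the annotated 5′ end. These lie apart for some genes, by 3553 bp for Rps24 and 2614 bp for Rpl18. The points share 1 pooled list, genes are not replicates, and 20 of the 85 genes had no sequence, so this is a description. Among those named only are Rpl3, Rpl7, Rpl8, Rpl17, Rpl21, Rpl23a, Rpl29, Rpl30, Rpl32, Rpl36, Rplp1, Rps14, Rps20, Rps27a and Rps29.

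T0 against Veh addresses the effect of the LXR agonist in unstimulated macrophages. A Veh promoter peak was missing from T0 for 3 of 76 genes (Rpl3, Rpl6 and Rpl19), against 6.96% of all genes, and a T0 peak was missing from Veh for 0 of 73, against 0.350%. The median change in percentile was -2.94 points, close to the -2.61 of all genes. The percentile was lower in T0 for 52 of 73 genes (71.2%), against 68.6% of all genes with a promoter peak in both lists. It was lower by at least 10 points for 17 genes (22.3% of all genes) and higher by at least 10 for 3 (2.32% of all genes). The T0 list was shorter, and a peak that keeps its place counted from the top has a lower percentile in a shorter list. With all lists shortened to equal length the median change was 1.06 points (all genes 0.948), and among peaks of regions present in every list it was 1.71 points (all genes 1.24), so the direction turned for both.

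Among the largest differences in T0 were those of 2 moderately ranked genes. Rpl12, which binds at the base of the ribosomal stalk, scored 308 (Veh), 122 (T0), 146 (LPS) and 198 (T0-LPS) and went from percentile 41.8 to 11.8 in T0 (-30.0). All 3 treated lists were below Veh by score and by this percentile. Ranked among regions present in every list, Rpl12 went from 24.5 to 8.27 in T0 (-16.2). By that rank T0-LPS, at 25.4, was not below Veh. Rpl38, whose protein is known for a role in the translation of Hox messenger RNAs, scored 275, 97, 264 and 134 and went from 37.2 to 5.81 (-31.4). It had 2 peaks in each list, and the strongest lay 694 bp downstream in Veh and 41 bp downstream in T0, where both had score 97. The peak near the start scored 103 in Veh (percentile 5.62) and 97 in T0 (5.81). The fall was thus that of the downstream peak, whose midpoint was at 694 bp in Veh and 559 bp in T0. Among regions present in every list the change of Rpl38 was -15.4 (19.2 to 3.82). Among the genes higher in T0 by at least 10 points were Rps24 (+13.1) and Rpl13a, a protein also known from the GAIT complex that restrains translation of inflammatory messenger RNAs (69.5 to 80.0, +10.5). The scores of Rpl13a were 568, 585, 536 and 670, so those of Veh and T0 were close while the ranks differed.

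Peaks were also narrower in T0. Width was lower in T0 for 64 of 73 genes (87.7%, all genes 86.6%), with a median change of -12.1% (all genes -10.5%). It was narrower by at least 1.2-fold for 23 genes (35.7% of all genes) and wider by that factor for 1 (1.94% of all genes). Rpl7 was 1814 bp wide in Veh and 580 bp in T0 (-68.0%), where a second peak of 228 bp was called beside it. A further T0 peak of 464 bp, at percentile 65.5, had its midpoint 1186 bp from the 5′ end, outside the 1 kb limit. The width change of Rpl7 thus compares 1 Veh peak with only 1 of several T0 peaks. Rpl38 was 437 and 190 bp (-56.5%). Rpl23a was 279 and 425 bp (+52.3%) and Rpl8 230 and 250 bp (+8.70%). Peak width grows with depth, and the depth of the libraries is unknown, so its part in the narrower peaks was not tested. Fewer open cells and less opening per cell cannot be told apart in bulk ATAC-seq.

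**Figure D3:**
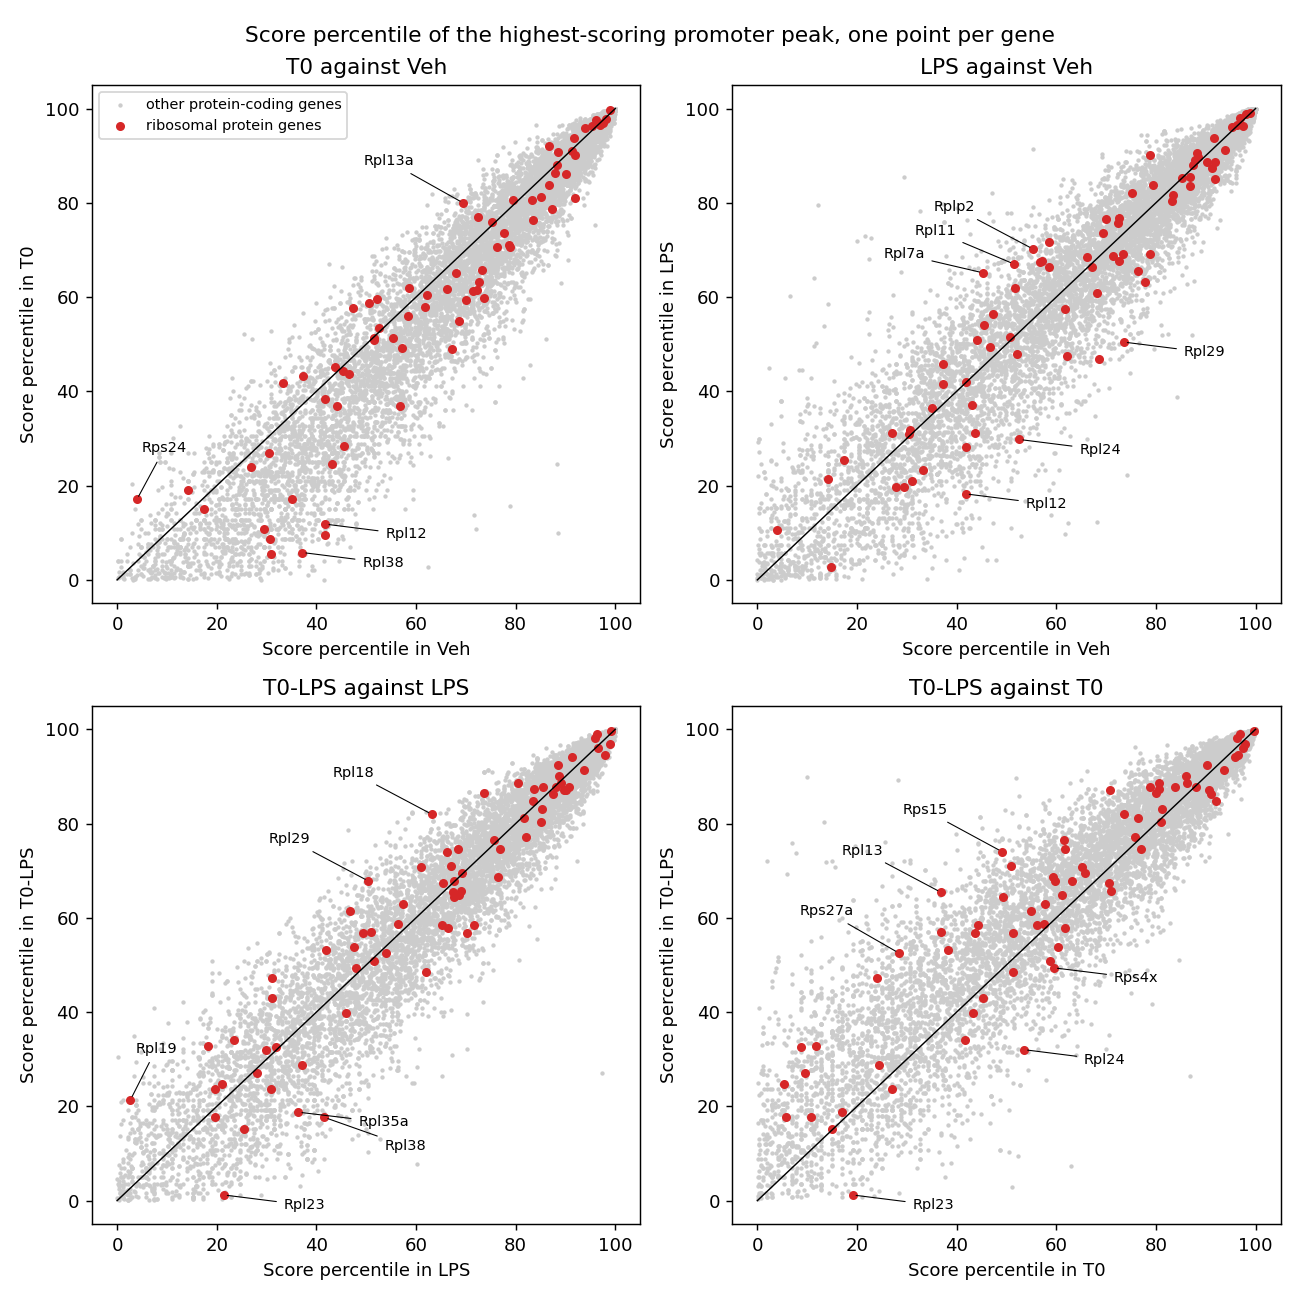
Score percentile of the strongest promoter peak in 2 lists, 1 panel for each of the 4 comparisons, with ribosomal protein genes in red, other protein-coding genes in grey and a line of equal percentile. Named genes are among the 3 largest differences in each direction. In T0 against Veh 52 of the 73 red points (71.2%) lie below the line, against 68.6% of all genes.

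LPS against Veh addresses the response to the TLR4 ligand, with the difference in culture time. A Veh peak was missing from LPS for 1 of 76 genes (Rpl3), against 3.32% of all genes, and an LPS peak was missing from Veh for 0 of 75, against 1.59%. The median change in percentile was +0.471 points (all genes -0.0895), and its direction turned with a score minimum of 200 (-0.983, all genes -1.21). It was lower by at least 10 points for 10 of 75 genes (11.5% of all genes) and higher for 8 (8.69% of all genes). Rpl12 was lower (41.8 to 18.3, -23.6), as were Rpl29 (73.5 to 50.5, -23.1) and Rpl24 (52.6 to 29.8, -22.8), all of the large subunit. Higher were Rpl7a (45.3 to 65.1, +19.8), Rpl11, which binds Mdm2 together with Rpl5 and 5S RNA (51.5 to 67.0, +15.6), and the stalk gene Rplp2 (55.3 to 70.2, +14.9).

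All of these genes also scored lower in T0 than in Veh, as did the whole list (median score 372 in Veh and 305 in T0). By percentile, Rpl12 (-30.0), Rpl29 (-13.7) and Rplp2 (-4.06) were lower in T0. Rpl11 (-0.558) and Rpl7a (-1.06) changed little, and Rpl24 was higher (+0.941). Rpl29 scored 620 (Veh), 374 (T0), 322 (LPS) and 430 (T0-LPS), so Veh was above all 3 treated lists. Rpl24 scored 395, 328, 199 and 193, with both lists with LPS below both without it. Rpl11 scored 385, 310, 465 and 462, with both lists with LPS above both without it, although the median score of all peaks was 372 in Veh and 319 in LPS. Rpl7a scored 335, 268, 446 and 352, and Rplp2 418, 313, 498 and 339. By score, LPS was highest and T0 lowest for these 2 genes. Ranked among regions present in every list, Veh was lowest instead (Rpl7a 28.7 against 39.3 in T0, Rplp2 41.4 against 46.8).

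The median change in width was -4.87% (all genes -3.71%). Width was lower in LPS for 53 of 75 genes (70.7%, all genes 65.6%), higher for 21 and the same for 1. It was narrower by at least 1.2-fold for 13 genes (20.1% of all genes) and wider for 8 (7.67% of all genes). Rpl7l1 was 428 bp in Veh and 251 bp in LPS (-41.4%), and Rps24 378 and 226 bp (-40.2%). Rpl32 was 252 and 671 bp (+166%), and Rps27a, which is made as a fusion with ubiquitin, 286 and 582 bp (+103%). Both of these promoters held 2 separate peaks in Veh and 1 wide peak in LPS.

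T0-LPS against LPS addresses the agonist in stimulated cells. An LPS peak was missing from T0-LPS for 1 of 75 genes (Rps24), against 3.26% of all genes, and a T0-LPS peak was missing from LPS for 1 of 75 (Rpl4), against 1.44%. The median change in percentile was +0.292 points (all genes -0.214), with -1.12 at a score minimum of 200 (all genes -0.967), so this direction turned as well. It was lower by at least 10 points for 7 of 74 genes (11.1% of all genes) and higher for 10 (7.73% of all genes). Lower were Rpl38 (41.6 to 17.7, -24.0), Rpl23 (21.4 to 1.21, -20.2) and Rpl35a (36.4 to 18.8, -17.6). Higher were Rpl18 (63.2 to 81.9, +18.7), Rpl19 (2.69 to 21.4, +18.7, from peaks at different places as described above) and Rpl29 (50.5 to 67.8, +17.3). The RefSeq start of Rpl18 lies 2614 bp downstream of the annotated 5′ end, so the Rpl18 peak given here is not at that start. Rpl18 scored 680, 504, 428 and 594 in Veh, T0, LPS and T0-LPS, and Rpl35a 261, 140, 235 and 140. Rpl35a was thus at score 140 in both lists with T0 and at 235 or above in both without it.

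The median change in width was -3.34% (all genes -3.19%). Width was lower in T0-LPS than in LPS for 49 of 74 genes (66.2%, all genes 62.9%) and higher for 25. It was narrower by at least 1.2-fold for 11 genes (18.5% of all genes) and wider for 5 (7.62% of all genes). Rpl32 was 671 and 266 bp (-60.4%), close to its width in Veh, and Rps27l, the paralog of Rps27, was 928 and 407 bp (-56.1%), with a second peak called beside it in T0-LPS. Rpl23 was 325 and 552 bp (+69.8%) and the stalk gene Rplp1 414 and 693 bp (+67.4%).

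T0-LPS against T0 addresses LPS in cells with the agonist, again with the longer culture. A T0 peak was missing from T0-LPS for 1 of 73 genes (Rps24), against 1.66% of all genes, and a T0-LPS peak was missing from T0 for 3 of 75 (Rpl4, Rpl6 and Rpl19), against 4.78%. The median change in percentile was +3.71 points (all genes +1.86). It was 2.15 with lists of equal length (all genes 0.965) and 2.37 among regions present in every list (all genes 1.13). It was lower by at least 10 points for 3 of 72 genes (6.46% of all genes) and higher for 18 (20.3% of all genes). Rpl13 (36.8 to 65.4, +28.6), Rps15 (49.1 to 74.1, +25.0) and Rps27a (28.4 to 52.5, +24.1) were higher. Rpl13 scored 432 (Veh), 227 (T0), 469 (LPS) and 409 (T0-LPS), Rps15 542, 297, 458 and 494, and Rps27a 336, 188, 349 and 308. For all 3 genes the T0 list stood below the other lists. Lower were Rpl24 (53.5 to 32.0, -21.5), Rpl23 (19.1 to 1.21, -17.9) and the X-linked Rps4x (59.5 to 49.4, -10.1).

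The median change in width was +3.74% (all genes +2.71%). Width was higher in T0-LPS than in T0 for 47 of 72 genes and lower for 25 (34.7%, all genes 38.6%). It was wider by at least 1.2-fold for 14 genes (19.8% of all genes) and narrower for 5 (8.93% of all genes). Rps27a was 210 bp in T0 and 563 bp in T0-LPS (+168%), and Rpl35a 227 and 588 bp (+159%). Rpl23a was 425 and 294 bp (-30.8%) and Rps3a1 891 and 630 bp (-29.3%). The 4 comparisons share lists (Veh stands in 2 of them, as do T0, LPS and T0-LPS), so they are not independent of each other.

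**Figure D4:**
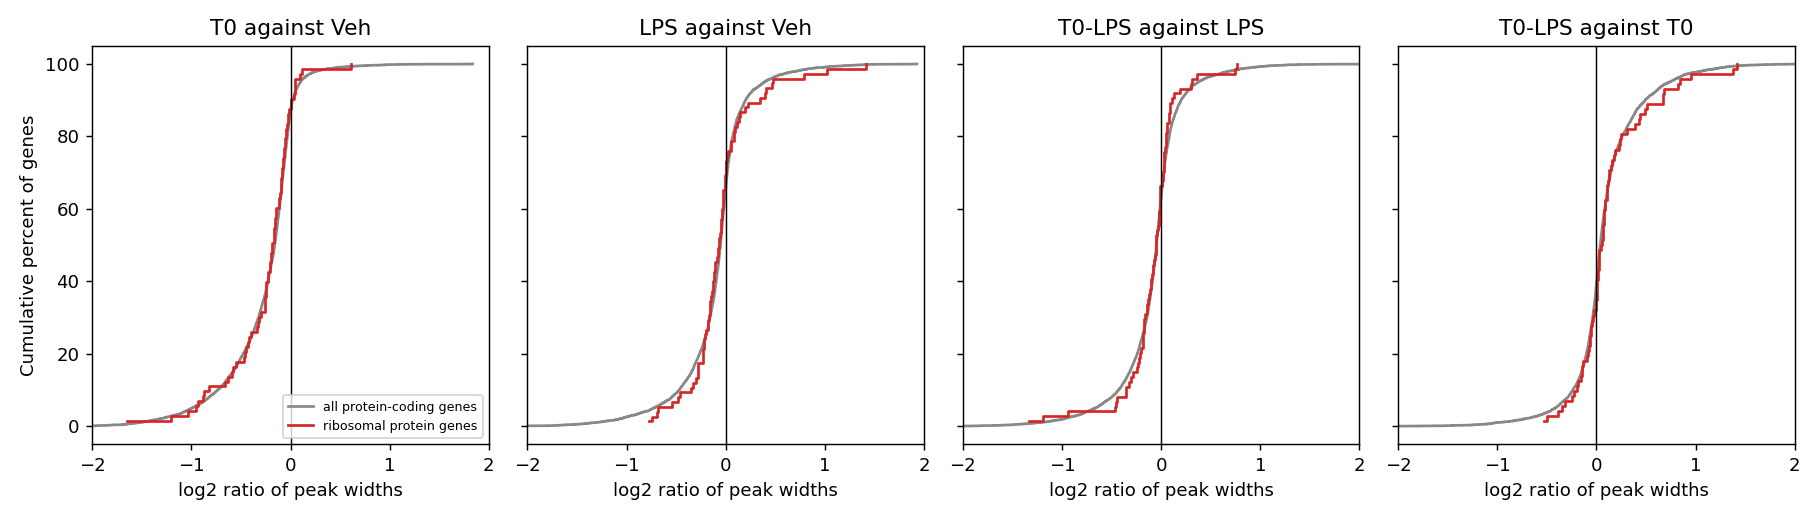
Cumulative percent of genes (y axis) by the log2 ratio of peak widths (x axis), 1 panel per comparison, with ribosomal protein genes in red and all protein-coding genes in grey. The curves lie close together. In T0 against Veh 64 of 73 ribosomal protein genes (87.7%, all genes 86.6%) are left of 0 (narrower in T0).

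Promoters with more than 1 peak numbered 6 in Veh and T0, 4 in LPS and 5 in T0-LPS. These were 7.89%, 8.22%, 5.33% and 6.67% of the ribosomal protein genes with a peak, against 14.6%, 12.8%, 14.3% and 13.1% of all genes with one. Rpl18, Rpl38 and the stalk gene Rplp0 had 2 peaks in every list. At Rplp0 the peak near the start scored 845 (Veh), 645 (T0), 710 (LPS) and 696 (T0-LPS), and the second, downstream, 66, 100, 131 and 92. The second Rplp0 peak was lowest in Veh by score and by percentile (0.904, 6.25, 14.3 and 5.86 in the same order). The first had its highest score in Veh, but its percentiles were 86.8, 83.8, 85.4 and 87.8, highest in T0-LPS.

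Ribosomal proteins that the symbol rule does not take include Rpsa, Rack1 and Fau, each with a promoter peak in every list. Rpsa, a small subunit protein also known as a laminin receptor, scored 717 (Veh), 444 (T0), 565 (LPS) and 555 (T0-LPS). Rack1, a scaffold protein on the small subunit, scored 450, 338, 472 and 408. Fau, which encodes a fusion with a small subunit protein, scored 186, 121, 195 and 228. For these 3 genes the T0 list had the lowest score.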

How the data were processed

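ATAC-seq was done on 16 libraries of mouse bone marrow-derived macrophages in 4 groups. The authors trimmed adaptors with cutadapt, aligned with Bowtie2, removed duplicates with SAMtools, called peaks with MACS2 on the 4 libraries of a group, and filtered them with bedtools to enhancers of macrophages. The build named in the submitters' processing notes was mm10. Each deposited list holds peak positions and a score per peak, the authors' peak caller score, whose scale no header states. No read counts were used here, and the depth of each library is unknown.

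From these lists, promoter peaks were assigned with Python 3.11.15 and GENCODE vM21, all 129556 peaks on the main chromosomes lying within GRCm38 lengths. Where a gene had several, the highest-scoring was used, and its score was ranked among all peaks of its list, with ties at mid-rank. Changes of at least 10 percentile points or 1.2-fold in width were counted beside all protein-coding genes with a promoter peak in both lists. These numbered 9975 (T0 against Veh), 10365 (LPS against Veh), 10189 (T0-LPS against LPS) and 9844 (T0-LPS against T0). Shares of missing peaks are of all genes with a promoter peak in the list searched from. With 1 pooled list per group no test was made. The assignment was tested on simulated peaks.

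The members, lists and motifs were chosen with earlier results of these data known. Genes named in the text are those with a peak in no list or in 1 to 3 lists, the 5 highest and 5 lowest Veh percentiles, the 3 largest percentile differences and 2 largest width differences each way per comparison, and ribosomal proteins outside the rule. Results of some single genes are not reported here, though the genes stay in the counts and medians. Others (Rps13, Rps21, Rps27, Rplp0, Rpl39 and the genes with neighbours or snoRNA genes) were named after their values were seen. Alternatives were any transcript start, windows of 500 bp and 2 kb, overlap with the start, a score minimum of 200, lists cut to 29839 peaks, ranks among promoter peaks or among regions in all lists, and motifs at peak centres.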

Additional observations from a re-analysis of the deposited data

Results flagged for a closer look

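For 3 genes, the percentile moved by over 10 points in one direction with T0 without LPS (T0 against Veh) and in the other with T0 after LPS (T0-LPS against LPS). Rpl12 changed by -30.0 points without LPS and by 14.6 points with it. Rpl29 changed by -13.7 and 17.3 points, and Rpl39, another large subunit gene, by -13.6 and 14.7 points. Such opposite changes of at least 10 points were seen in 3 of 72 ribosomal protein genes (4.17%) and in 290 of 9786 protein-coding genes (2.96%). Ranked among regions present in every list, the changes were -16.2 and 17.1 (Rpl12), -9.06 and 23.0 (Rpl29) and -7.81 and 20.1 (Rpl39), so those of Rpl29 and Rpl39 without LPS were under 10 points. Each value compares 2 pooled lists, so the difference between the effects was not tested. The scores of Rpl39 were 557 (Veh), 338 (T0), 298 (LPS) and 375 (T0-LPS). In all 3 genes the Veh score was the highest and T0-LPS was above LPS. T0 below Veh and T0-LPS above LPS go with the changes for which these genes were flagged, so they are not a separate result. Ranked among regions present in every list, Rpl12 was at 24.5 in Veh and 25.4 in T0-LPS, so Veh was not highest there.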

How the results depend on the processing

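No paired analysis was possible because the 4 libraries of a group were pooled into 1 list, and leaving out single libraries was not run for the same reason. Of the values recomputed under other settings, 155 of the alternatives set at the start and all 24 without the 9 like-named genes, chosen after seeing the data, stayed within the limit used. This was a factor of 1.5 for counts, the 95% order-statistic interval over genes for medians and the 95% Wilson interval for motif shares. These limits are wide for values near 0. Within them, T0-LPS against LPS went from 0.292 to between 0.128 (ranks among promoter peaks) and 0.770 (any transcript start), and LPS against Veh from 0.471 to 0.241 (any transcript start). T0 against Veh went from -2.94 to -1.71 (ranks among promoter peaks) and T0-LPS against T0 from 3.71 to 2.15 (equal length). The median width change of T0-LPS against T0 went from 3.74% to 2.09% (overlap of the start). At Veh peak centres the E-box was in 13.8% rather than 7.69% and AP-1 in 1.72% rather than 3.08%. No alternative was run for CTTTCC. With ranks among promoter peaks only, the median percentiles were 47.8 (Veh), 42.9 (T0), 47.6 (LPS) and 45.9 (T0-LPS). With a score minimum of 200, the medians were 50.2 in T0 and 55.5 in LPS (all genes 64.0 and 64.5), the genes with a peak in one list only numbered 12 for T0 against Veh, 7 for LPS against Veh and 6 for T0-LPS against LPS (16.9%, 9.86% and 9.23% of those with a peak in either, against 13.6%, 8.85% and 8.32% of all genes), and the median percentile changes were -6.57, -0.983 and -1.12 (all genes -4.65, -1.21 and -0.967). With lists of equal length these changes were 1.06, 1.33 and 2.54, and among regions in all lists 1.71, 1.56 and 2.78. The direction thus turned under both for T0 against Veh, and at the score minimum for LPS against Veh and for T0-LPS against LPS. The cause was not tested. For LPS against Veh, the genes with a peak in one list only numbered 0 with any transcript start, within 500 bp or with overlap of the start, and 2 within 2 kb or with lists of equal length. For T0-LPS against LPS the number was 1 with any transcript start. The letters AGGTCA were in 3.45% of 300 bp windows at Veh peak centres (10.1% of all). Scores are limited by an unknown depth, and a score minimum removes more peaks from the lists with lower scores.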

Other observations

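Other genes whose messenger RNAs start with a terminal oligopyrimidine tract, mostly translation factors, had a promoter peak in all 4 lists in 16 of 16 cases. Their median percentile was 81.7 (Veh), 80.3 (T0), 76.5 (LPS) and 82.7 (T0-LPS). The elongation factor genes spanned a wide range. Eef1a1 scored 112 (Veh), 110 (T0), 149 (LPS) and 81 (T0-LPS), and Eef2 scored 148, 104, 83 and 82. Eef1b2 scored 370, 336, 258 and 278, and Eef1d 330, 201, 285 and 202. Eef1g, of the exchange complex that recharges Eef1a1, scored 812, 635, 670 and 580. Tpt1 scored 1262, 1332, 1065 and 1073, and the chaperonin gene Cct4 1323, 1105, 1195 and 1005. The list was chosen with earlier results of these data known, and no value has a replicate check.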
